A study of Marchantia polymorpha and Klebsormidium nitens with 125 samples.

Results

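In the liverwort Marchantia polymorpha, 103 of the 19355 genes in the count table of a wild-type starvation and resupply series passed a level limit and 3 ratio limits that define a peak 24 h after sucrose was returned to sucrose-starved plants. Levels are given in CPM, the count of a gene divided by the total count of its library and multiplied by 1000000. A gene was a member if its mean over the 3 libraries taken 24 h after sucrose was at least 5 CPM, and if that mean plus 1 was at least 2.5 times the mean plus 1 in sucrose-starved plants, 6 h after sucrose and 72 h after sucrose. 1 gene that the rule leaves out by name is not reported. The members were therefore chosen from the sucrose libraries of this series, and the differences among the 4 sucrose groups are descriptions with no test.

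All plants were whole gemmalings, young plants grown from gemmae, the small vegetative propagules of the liverwort. They were grown for 7 days in liquid full Yamagami medium. Starved plants then spent 5 days in modified medium, in which nitrate or phosphate was cut to 1% of its usual concentration or sucrose was left out (0%). Resupplied plants were moved after those 5 days to full medium for 6, 24 or 72 h. Controls were labelled as full Yamagami medium or as untreated, and their age at harvest is not given in the sources used here. The time course used the wild-type strain Tak-1 and had 13 groups of 3 libraries: nitrate, phosphate and sucrose, each starved and at 6, 24 and 72 h, and the control. Knock-out mutants of 3 transcription factor genes were each represented by 1 numbered line: Mpcsd-2, Mperf20-21 and Mphd9-14. A control-condition set compared these mutants with Tak-1, with 3 libraries each. A mutant starvation set held each mutant starved of nitrate, phosphate or sucrose beside its own control, with 3 libraries a group except 2 for sucrose-starved Mperf20-21. In all, 86 libraries in 29 groups were used. The mutant set held no resupplied plants.

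A plant cell wall is a network of cellulose, hemicelluloses and pectins that is loosened for growth and stiffened by cross-linking. Class III peroxidases are secreted enzymes that use hydrogen peroxide to oxidise phenolic compounds and can cross-link or loosen walls. Polyphenol oxidases are copper enzymes that oxidise phenols to quinones, expansins loosen walls without cutting them, and family GH16 includes the xyloglucan endotransglucosylase/hydrolases that cut and rejoin hemicellulose chains. Sugar is both a carbon source and a signal for growth in land plants.

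The time-course libraries held 19930892 to 38992957 counts, those of the control-condition set 20161746 to 27511775, and those of the mutants under starvation 16878159 to 28439838. Nothing in the labels tells whether replicate libraries were separate cultures, and p-values therefore describe only the spread between libraries, which may be technical. In bulk RNA from whole plants, fewer cells of a type and less RNA per cell cannot be told apart. Summed levels of 5 oil body cell markers were 89.8 to 101 CPM 24 h after sucrose, 77.1 to 87.6 CPM in sucrose-starved plants and 105 to 120.4 CPM in controls. The rhizoid marker MpBHLH14 was at 17.4 to 21.2 CPM 24 h after sucrose, 9.87 to 12.5 CPM in sucrose-starved plants and 11.8 to 13.05 CPM in controls. The MpNOP1 marker of air pores was at 94.1 to 102 CPM 24 h after sucrose and 128 to 144 CPM in sucrose-starved plants. The 3 markers of the growing notch summed to 432 to 489 CPM 24 h after sucrose and 278 to 306 CPM in sucrose-starved plants. The 5 gametangium markers summed to 141 to 156 CPM 24 h after sucrose and 98.6 to 106 CPM in sucrose-starved plants, with MpBHLH20 and MpPRM at or near 0 in every library. The part of these cell types in the results was not tested.

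Summed over the 103 genes, the level was 182, 149.7 and 212 CPM in the 3 sucrose-starved libraries, 335, 160.5 and 295 CPM at 6 h, 2351, 1853 and 1829 CPM at 24 h and 233, 631 and 183 CPM at 72 h. The group means were 181 ± 31.1, 263 ± 91.2, 2011 ± 295 and 349 ± 246 CPM (SD, n = 3 each). The lowest library at 24 h was at 1829 CPM, whereas the other 36 time-course libraries lay between 136 and 631 CPM. Controls summed to 189, 232 and 189 CPM.

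**Figure D1:**
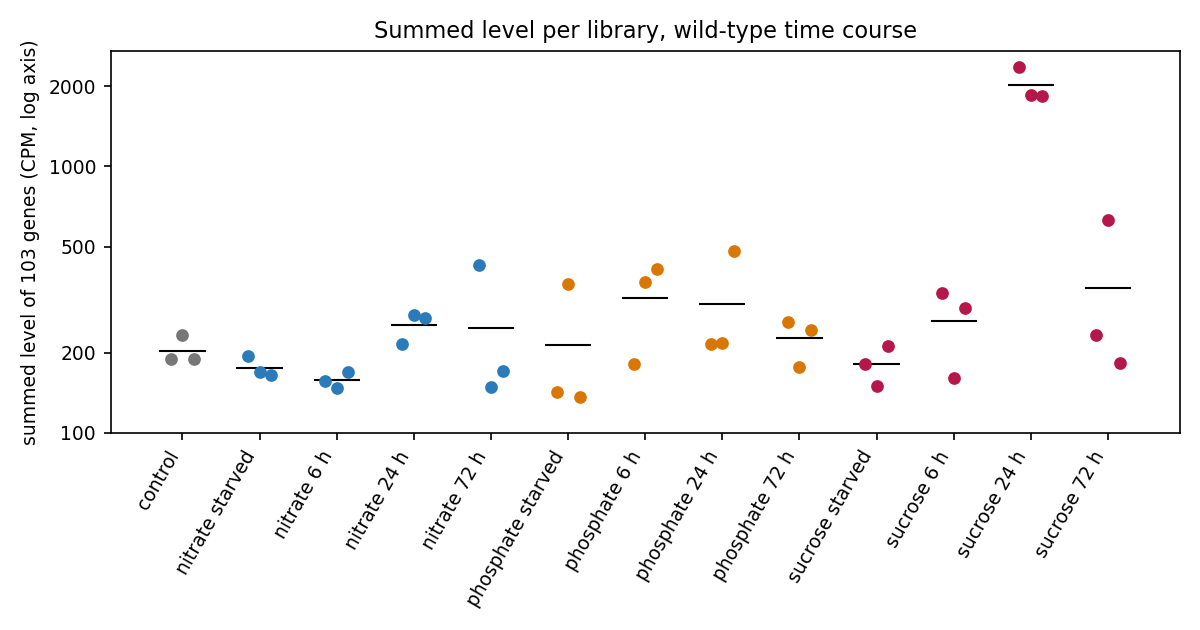
Summed level of the 103 genes in each library of the wild-type time course, in CPM on a log axis; points are libraries and lines are means of 3. The 3 libraries 24 h after sucrose sit between 1829 and 2351 CPM, above all other libraries, which lie between 136 and 631 CPM.

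Measures that the rule did not use were the nitrate, phosphate and control libraries. Set against all 13 group means, 24 h after sucrose was the highest for all 103 genes, against 8.81% of the 19355 genes of the table. For 102 members the 3 libraries at 24 h also lay above all 36 other libraries of the time course, against 2.63% of all genes. The rule forces the order within sucrose, so these shares describe how high the peak stood and are no test. Under the same +1 ratio, every member was at least 2.5 times its control mean, with a median of 8.34. In control plants 70 members averaged under 1 CPM and 5 had no read in any control library, and in sucrose-starved plants 72 averaged under 1 CPM. The group next in rank was 72 h after sucrose for 43 members and 6 h after sucrose for 19. It was 24 h after phosphate for 18 and 6 h after phosphate for 14.

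As a share of the 24 h mean, the median member stood at 2.41% in sucrose-starved plants, 5.79% at 6 h and 9.91% at 72 h. At 6 h 60 members were still below 10% of their peak, and at 72 h 52 were. The value at 72 h rested on 1 library: the median member was at 24.4% of its peak in replicate 2 and at 2.32% in the mean of replicates 1 and 3. In replicate 2 at 72 h, 102 of the 103 members had their highest value of the 3 libraries. Across all genes that library was not unusual, with a median absolute difference from its fellow replicates of 0.116 on the log2 scale, against 0.171 in the most divergent library of the time course, replicate 2 at 6 h after sucrose.

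The same shared rise in 1 library was seen in other groups. Replicate 3 at 24 h after phosphate summed to 481 CPM, with 101 members at their highest of that group, and the group read 215, 218 and 481 CPM. Phosphate-starved replicate 2 held the highest value of 94 members in a group that summed to 143, 362 and 136 CPM. Replicate 1 at 72 h after nitrate held the highest value of 102 members in a group at 426, 148 and 171 CPM. In each of these groups the members were high together in 1 library, and that spread enters every test of those groups. Their all-gene differences from the other replicates were 0.109, 0.138 and 0.102 on the log2 scale in the order given.

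**Figure D2:**
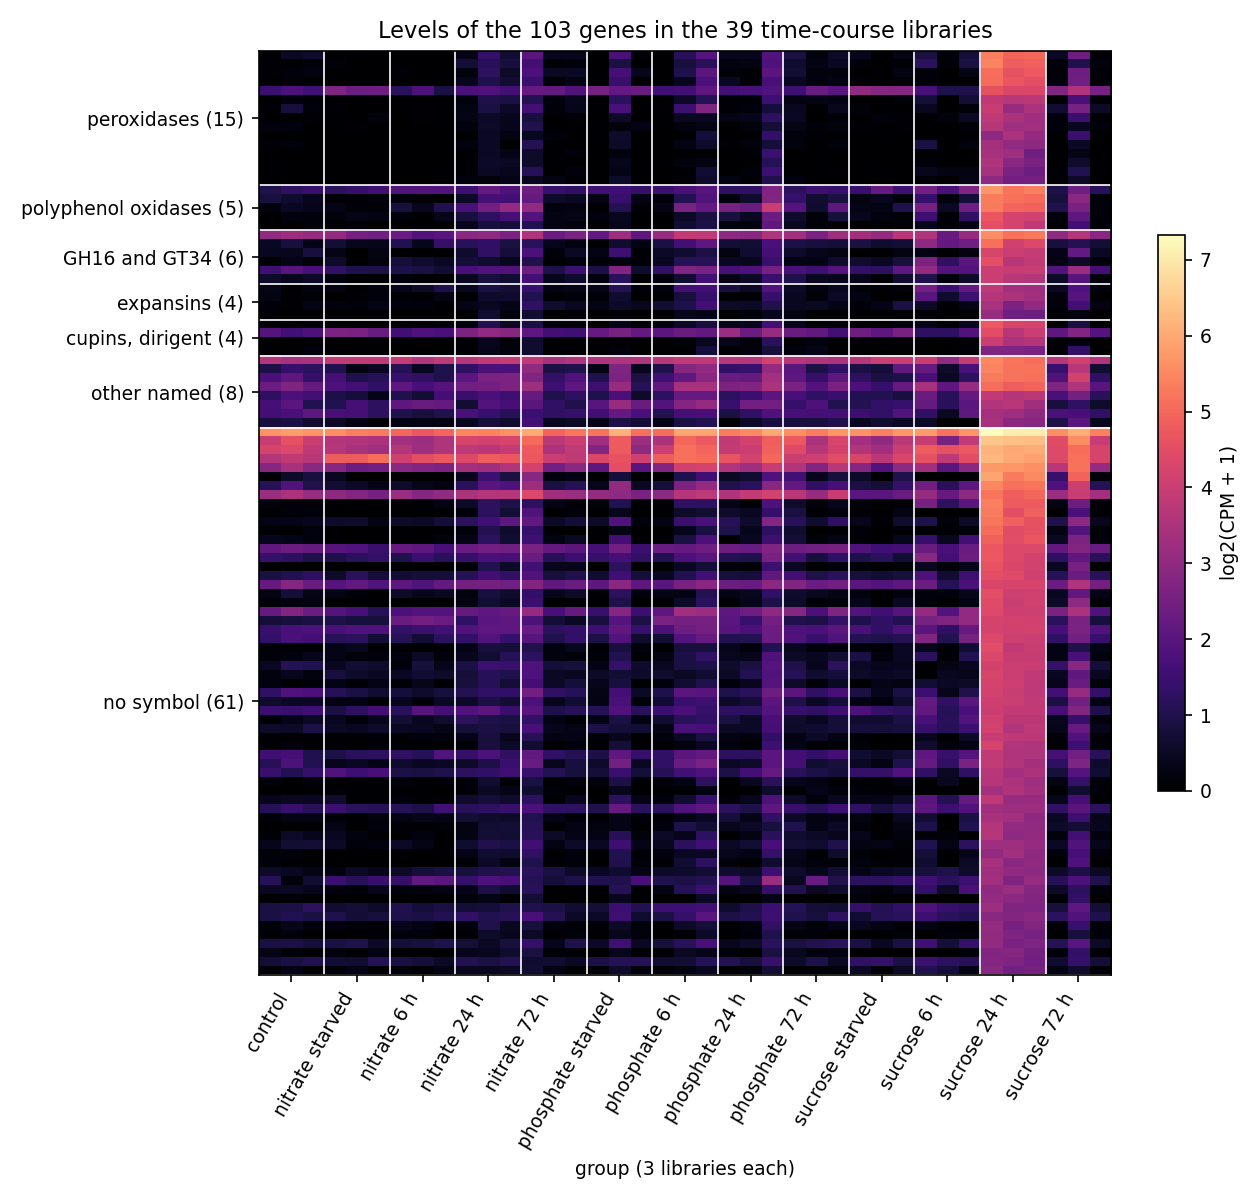
Levels of the 103 genes, 1 row each and grouped by gene family, in the 39 libraries of the wild-type time course, as log2(CPM + 1). The 3 columns 24 h after sucrose are bright in every family, and single brighter columns stand out at 72 h after sucrose, 24 h after phosphate and in phosphate-starved plants.

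The 24 h means of the members ran from 5.22 to 141 CPM with a median of 15.0, and the smallest of the 3 ratios of a member ran from 2.52 to 19.5 with a median of 4.78. The closest limit was that to 72 h for 70 members, to 6 h for 29 and to starved plants for 4. Just inside the ratio limit lay Mp1g14110 at 2.52 and Mp1g09600 at 2.56, and just outside lay Mp7g07330 at 2.49, MpCSLD4 at 2.49 and Mp3g20560 at 2.47. Just inside the level limit lay Mp2g08480 at 5.22 CPM, Mp1g14110 at 5.30 CPM and MpExpansin26 at 5.34 CPM, and just outside lay Mp3g24230 at 4.90 CPM, MpGH16.22 at 4.75 CPM and Mp7g00480 at 4.51 CPM.

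Of the 103 genes, 42 carried a symbol in the reference table, 58 were known there by locus only and 3 were not in it. Among the 37 gene lists examined, 13 held members. Class III peroxidases were the most frequent, with 15 members of 164 in the table. Cell wall carbohydrate enzymes followed with 6 of 242, then polyphenol oxidases with 5 of 57, expansins with 4 of 37, and cupins and dirigent proteins with 4 of 162. No member was on the symbol lists of WRKY (14 genes), ERF (21), bZIP (13) or R2R3 MYB (52) transcription factors. Nor was any on those of bHLH (49), NAC (10) or homeodomain (41) factors. Members were 0.532% of all genes, so lists of this size can lack a member, and nothing is read from that. The list of 129 cytochrome P450 symbols held none either, but it leaves out MpC4H3, which is also a P450 enzyme symbol.

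The 15 peroxidase members summed to 278, 204 and 199.6 CPM in the 3 libraries 24 h after sucrose, against 0.895 to 38.2 CPM in the other 36 libraries. They were a small part of the whole family: 12.03, 10.4 and 9.98% of its summed level 24 h after sucrose, against 0.0596 to 2.36% elsewhere. MpPOD29 had 0.0933, 0 and 0.0477 CPM in sucrose-starved libraries, 1.32, 0.0928 and 0.835 CPM at 6 h, 43.2, 27.5 and 28.7 CPM at 24 h and 0.107, 0.975 and 0.167 CPM at 72 h. It was near 0 in starved plants and reached its peak only at 24 h, with the largest smallest-of-3 ratio of all members, 19.5. MpPOD28, its neighbour on chromosome 3, had 0.326, 0 and 0.238 CPM in sucrose-starved libraries, 0.843, 0.0928 and 0.696 CPM at 6 h, 40.0, 29.7 and 30.8 CPM at 24 h and 0.429, 4.29 and 0.0418 CPM at 72 h. Both were high in every library at 24 h, and at 72 h both were highest in replicate 2.

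MpPOD154 had 0.0466, 0 and 0.0477 CPM in sucrose-starved libraries, 0.0803, 0 and 0 CPM at 6 h, 32.9, 24.7 and 22.3 CPM at 24 h and 0.107, 4.33 and 0.0418 CPM at 72 h. MpPOD155 had 0, 0.0377 and 0.191 CPM in sucrose-starved libraries, 0.1204, 0 and 0.232 CPM at 6 h, 33.8, 23.0 and 26.3 CPM at 24 h and 0.0715, 4.29 and 0.0418 CPM at 72 h. Both genes lie on chromosome 7, though not side by side. They, too, were at or near 0 in starved plants and at 6 h, and the replicates at 24 h did not overlap any other group. MpPOD24 differed from them in its base level, with 6.95, 6.08 and 6.05 CPM in sucrose-starved libraries, 2.29, 0.974 and 1.02 CPM at 6 h, 23.4, 18.8 and 18.7 CPM at 24 h and 5.76, 10.5 and 4.77 CPM at 72 h. Its libraries at 6 h lay below all starved libraries, and at 72 h they spread around the starved level. The remaining peroxidases, MpPOD27, MpPOD69, MpPOD70, MpPOD80, MpPOD93, MpPOD99, MpPOD106, MpPOD108, MpPOD119 and MpPOD135, had 24 h means from 5.37 to 12.5 CPM.

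The 5 polyphenol oxidases summed to 176, 138 and 132 CPM 24 h after sucrose, against 1.55 to 33.7 CPM in the other 36 libraries. MpPPO48, the most abundant of them, had 1.73, 3.74 and 1.95 CPM in sucrose-starved libraries, 4.53, 2.27 and 5.56 CPM at 6 h, 52.0, 36.7 and 40.3 CPM at 24 h and 0.929, 4.29 and 1.21 CPM at 72 h. MpPPO72 had 0.187, 0.340 and 0.143 CPM in sucrose-starved libraries, 1.65, 0.139 and 0.742 CPM at 6 h, 39.2, 35.3 and 32.4 CPM at 24 h and 0.751, 6.48 and 0.0837 CPM at 72 h. Its 3 libraries at 24 h lay far above all libraries at the other times. MpPPO55 had 0.233, 0.189 and 1.00 CPM in sucrose-starved libraries, 4.70, 0.418 and 4.27 CPM at 6 h, 38.3, 30.2 and 29.1 CPM at 24 h and 1.00, 5.03 and 0.126 CPM at 72 h, again with replicate 2 highest at 72 h. MpPPO56, MpPPO14 and MpPPO72 are adjacent on chromosome 6, and their 24 h means were 19.8, 17.6 and 35.6 CPM in that order.

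Among wall enzymes, 5 members belonged to family GH16 and 1, MpGT34.10, to family GT34, which includes xyloglucan xylosyltransferases. MpGH16.38 had 8.91, 7.25 and 12.3 CPM in sucrose-starved libraries, 10.6, 3.71 and 7.56 CPM at 6 h, 46.8, 35.1 and 37.6 CPM at 24 h and 6.58, 11.4 and 6.23 CPM at 72 h. MpGH16.16 had 0.839, 0.566 and 0.667 CPM in sucrose-starved libraries, 6.86, 3.57 and 4.31 CPM at 6 h, 34.3, 16.7 and 19.5 CPM at 24 h and 0.786, 1.09 and 0.670 CPM at 72 h. MpGH16.38 had a base level at all times, whereas MpGH16.16 was above its starved level in all 3 libraries at 6 h and back near it in all 3 at 72 h. Its neighbour on chromosome 3, MpGH16.17, had 0.560, 0.377 and 0.763 CPM in sucrose-starved libraries, 5.22, 1.44 and 3.11 CPM at 6 h, 22.1, 11.7 and 13.5 CPM at 24 h and 0.214, 0.468 and 0.126 CPM at 72 h. The 4 expansins summed to 41.7, 28.6 and 28.8 CPM 24 h after sucrose, against 0.0835 to 8.11 CPM in the other 36 libraries. MpExpansin38 had 0.0933, 0.0755 and 0.0953 CPM in sucrose-starved libraries, 4.58, 1.67 and 3.57 CPM at 6 h, 12.8, 8.94 and 8.73 CPM at 24 h and 0.429, 2.497 and 0.167 CPM at 72 h. MpExpansin12 likewise had 0.187, 0 and 0 CPM in sucrose-starved libraries, 3.01, 0.557 and 1.81 CPM at 6 h, 11.4, 10.1 and 8.86 CPM at 24 h and 0.143, 2.89 and 0 CPM at 72 h. Both expansins were above their starved level in all 3 libraries at 6 h and higher again at 24 h. MpExpansin8 and MpExpansin26 reached means of 7.46 and 5.34 CPM.

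**Figure D3:**
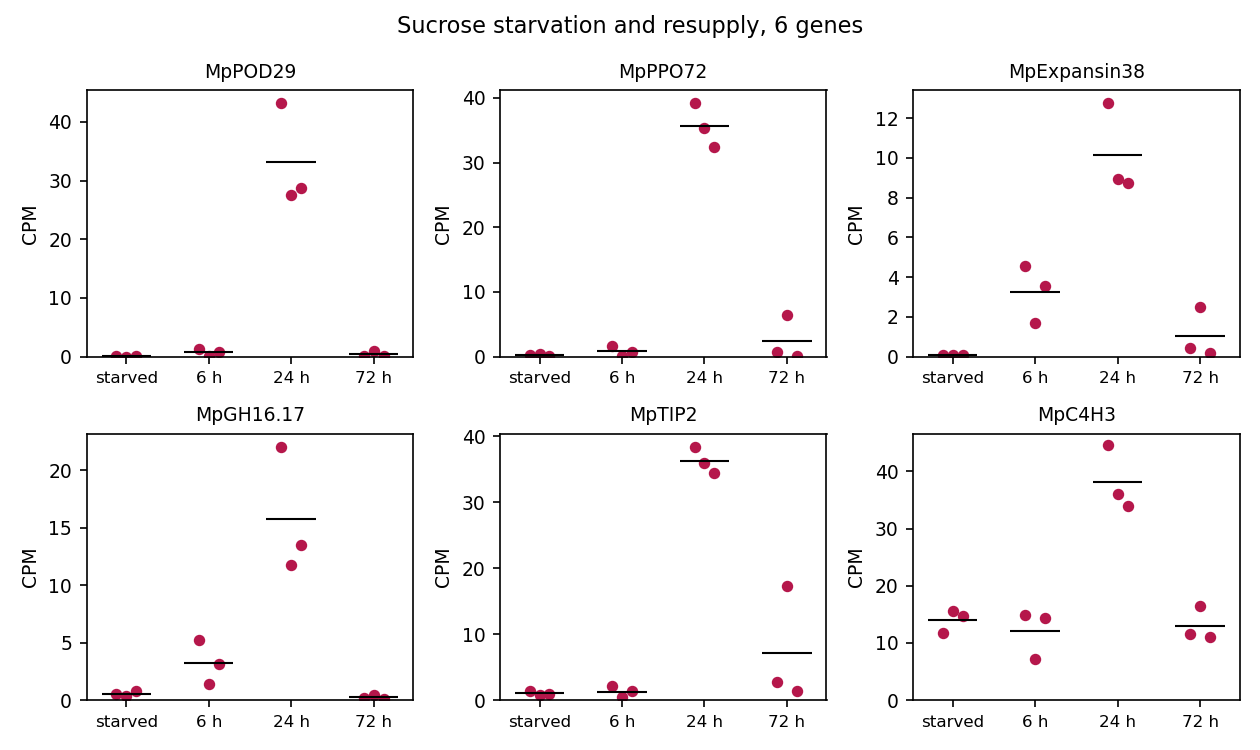
Levels in CPM of MpPOD29, MpPPO72, MpExpansin38, MpGH16.17, MpTIP2 and MpC4H3 in sucrose-starved plants and 6, 24 and 72 h after sucrose; points are libraries and lines are means of 3. In all 6 genes the 3 libraries at 24 h lie above every library of the other times, and MpC4H3 has a base level of 7.28 to 16.5 CPM.

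Cupins share the barrel fold of germin-like and storage proteins, and dirigent proteins guide the coupling of phenoxy radicals. MpCupin66 had 0, 0 and 0.143 CPM in sucrose-starved libraries, 0.241, 0 and 0.371 CPM at 6 h, 25.7, 18.6 and 17.6 CPM at 24 h and 0, 0.819 and 0 CPM at 72 h. Its smallest ratio was 17.0, among the 5 largest, and it lay beside MpCupin65, which averaged 12.3 CPM at 24 h. The dirigent gene MpDIR6 had 4.24, 3.28 and 4.91 CPM in sucrose-starved libraries, 1.36, 1.39 and 2.64 CPM at 6 h, 21.2, 12.1 and 15.1 CPM at 24 h and 3.29, 5.81 and 2.85 CPM at 72 h. Its libraries at 24 h stood apart from all others, but its starved level was far from 0.

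Single members of other families covered metabolism and transport. MpC4H3, a cinnamate 4-hydroxylase symbol of the phenylpropanoid route to phenolic compounds, had 11.8, 15.6 and 14.8 CPM in sucrose-starved libraries, 15.0, 7.28 and 14.3 CPM at 6 h, 44.7, 36.1 and 33.9 CPM at 24 h and 11.6, 16.5 and 10.96 CPM at 72 h. MpTIP2, named for the tonoplast aquaporins that pass water into the vacuole, had 1.35, 0.830 and 0.953 CPM in sucrose-starved libraries, 2.17, 0.418 and 1.34 CPM at 6 h, 38.4, 36.01 and 34.4 CPM at 24 h and 2.68, 17.3 and 1.46 CPM at 72 h. MpLEA-like54, named for the late embryogenesis abundant proteins of dry tissues, had 0.886, 0.717 and 3.43 CPM in sucrose-starved libraries, 3.77, 0.510 and 2.27 CPM at 6 h, 42.8, 35.5 and 35.3 CPM at 24 h and 1.72, 12.2 and 0.586 CPM at 72 h. All 3 were highest in the libraries at 24 h. MpAMT2.2, an ammonium transporter symbol, MpPTB7, a sodium-coupled phosphate transporter symbol, and MpLOX11, a lipoxygenase symbol, had 24 h means of 8.20, 12.4 and 7.38 CPM. MpTPS6 and MpARFD1 averaged 10.7 and 30.2 CPM, and their roles are not given in the sources used here.

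The most abundant members had no symbol. Mp2g05100 had 50.6, 40.1 and 52.9 CPM in sucrose-starved libraries, 54.2, 35.7 and 51.3 CPM at 6 h, 159.8, 131 and 132 CPM at 24 h and 48.6, 68.8 and 40.9 CPM at 72 h. Mp5g13580 had 9.19, 6.95 and 12.6 CPM in sucrose-starved libraries, 14.5, 4.87 and 14.1 CPM at 6 h, 86.5, 81.9 and 80.1 CPM at 24 h and 20.9, 46.3 and 14.8 CPM at 72 h. Both were well above 0 at all times and still did not overlap between 24 h and the other groups. Mp2g14520 had 0.466, 0.0377 and 1.00 CPM in sucrose-starved libraries, 0, 0 and 0.0464 CPM at 6 h, 60.5, 38.6 and 45.3 CPM at 24 h and 1.64, 29.8 and 0.0837 CPM at 72 h. Unlike the first pair, it was near 0 before 24 h, and at 72 h it was high in replicate 2 alone. Mp2g08500 had 0.0466, 0 and 0.238 CPM in sucrose-starved libraries, 0, 0 and 0 CPM at 6 h, 38.6, 22.2 and 28.5 CPM at 24 h and 0, 2.26 and 0.0418 CPM at 72 h, with a smallest ratio of 17.4.

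Members lay on all 8 numbered chromosomes, from 6 on chromosome 7 to 20 on chromosome 5. By gene order in the reference annotation, 23 of the 100 placed members lay next to another member, in 10 runs of at most 3. The runs of 3 were MpPOD27, MpPOD28 and MpPOD29 on chromosome 3, MpPPO56, MpPPO14 and MpPPO72 on chromosome 6, and Mp2g08480, Mp2g08490 and Mp2g08500 on chromosome 2. Neighbours of 1 family can share reads where their sequences are alike, and the sources used here do not say how the authors counted such reads. The values of MpPOD27 to MpPOD29, MpPPO56 to MpPPO72, MpCupin65 and MpCupin66, MpGH16.16 and MpGH16.17, and MpPOD69 and MpPOD70 are therefore uncertain.

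Whether the members also rose after nitrate or phosphate was tested on libraries that the rule had not used. By the same folds and level as the sucrose rule, no member peaked 24 h after nitrate, where 0% of all genes did, and none 24 h after phosphate, where 0.031% did. In edgeR's quasi-likelihood test with Benjamini-Hochberg adjustment over 13503 genes, 16 of the 103 members were higher and 1 was lower 24 h after nitrate than in nitrate-starved plants, against 14.4% of all tested genes higher and 15.5% lower. The median difference was 1.81 on the log2 scale over the members and 0.0052 over all genes. All 103 passed the filter on low counts because the table includes the 24 h sucrose libraries, whereas 62 passed in a fit on the compared groups alone. Neither the share called nor the median of members is therefore read against that of all genes. The same limit holds for every later comparison within the time course.

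MpPPO55 rose to 2.27, 4.61 and 7.37 CPM 24 h after nitrate, against 0.256, 0.0667 and 0.0726 CPM in nitrate-starved plants, a change of 5.03 ± 1.35 (log2 fold change ± SE, adjusted p = 0.00497). The libraries did not overlap, but all 3 resupplied libraries were below the 24 h sucrose libraries. Mp7g08760 had 10.2, 11.3 and 11.9 CPM 24 h after nitrate and 6.85, 5.60 and 4.79 CPM in nitrate-starved plants, a change of 0.97 ± 0.30 (log2 fold change ± SE, adjusted p = 0.0142). MpPOD24 was the only member called lower, with 2.38, 2.53 and 2.00 CPM 24 h after nitrate against 5.44, 4.17 and 4.25 CPM in nitrate-starved plants, a change of -0.98 ± 0.30 (log2 fold change ± SE, adjusted p = 0.0144). Of the 15 peroxidases 1 was called higher, MpPOD29, and of the 5 polyphenol oxidases 2. Among the tested peroxidases that were not members, 7 of 55 were higher and 8 lower, and among such polyphenol oxidases 3 of 25 were higher and 4 lower. For Mp7g08760 the adjusted p was 0.0687 without nitrate-starved replicate 3. For MpPOD24 the adjusted p was 0.0627 without nitrate 24 h replicate 3 and 0.0746 without nitrate-starved replicate 1. The count of 17 called members was 4 without nitrate 24 h replicate 2, 8 without nitrate 24 h replicate 3, 7 without nitrate-starved replicate 1, 6 without nitrate-starved replicate 2 and 5 without nitrate-starved replicate 3. It was 28 in DESeq2 and 33 of the 62 members it could test in edgeR fitted on the compared groups alone.

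After phosphate, 13 of the 103 members were higher at 24 h than in phosphate-starved plants and none was lower, against 16.9% and 17.1% of all genes. The median difference of members was 0.93 on the log2 scale, against 0.0060 over all genes. As after nitrate, neither the share called nor the median is read against that of all genes. MpPPO55 had 4.88, 3.92 and 15.1 CPM 24 h after phosphate, against 0, 1.10 and 0.0652 CPM in phosphate-starved plants, a change of 4.60 ± 1.20 (log2 fold change ± SE, adjusted p = 0.00358). Mp7g08760 had 10.8, 14.1 and 16.8 CPM 24 h after phosphate and 7.39, 6.96 and 5.02 CPM in phosphate-starved plants, a change of 1.15 ± 0.30 (log2 fold change ± SE, adjusted p = 0.00388). The libraries of both genes did not overlap between the groups. MpGH16.16, MpGH16.17, MpCupin65, MpCupin66, MpPPO14, MpPPO56 and MpDIR6 were also among the 13, and no peroxidase was. The count was 2 without phosphate 24 h replicate 3, 3 without phosphate-starved replicate 1, 36 without phosphate-starved replicate 2 and 4 without phosphate-starved replicate 3. It was 3 of the 58 members it could test in edgeR fitted on the compared groups alone. These libraries include phosphate-starved replicate 2 and replicate 3 at 24 h, in which the members were high together.

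Against 6 h of resupply, 8 members were higher 24 h after nitrate and none lower, where 13.1% and 13% of all genes were. After phosphate 2 were higher and none lower, where 10.2% and 8.33% were. MpDIR6 was called in both. It had 5.33, 7.14 and 6.11 CPM 24 h after nitrate and 1.95, 2.52 and 2.24 CPM at 6 h, a change of 1.52 ± 0.29 (log2 fold change ± SE, adjusted p = 0.000325). After phosphate it had 7.88, 4.07 and 7.56 CPM at 24 h and 3.17, 3.96 and 3.52 CPM at 6 h, a change of 0.88 ± 0.28 (log2 fold change ± SE, adjusted p = 0.0269). The nitrate libraries at 24 h lay above those at 6 h, and so did the phosphate libraries. For MpDIR6 after phosphate the adjusted p was 0.0562 in a fit on the compared groups alone, 0.132 without phosphate 24 h replicate 1, 0.0963 without phosphate 24 h replicate 3, 0.0741 without phosphate 6 h replicate 1, 0.0578 without phosphate 6 h replicate 2 and 0.077 without phosphate 6 h replicate 3. The nitrate count was 1 without nitrate 24 h replicate 2, 4 without nitrate 24 h replicate 3, 1 without nitrate 6 h replicate 1, 5 without nitrate 6 h replicate 2 and 1 without nitrate 6 h replicate 3, and it was 24 in DESeq2 and 35 of the 63 members it could test in edgeR fitted on the compared groups alone. The phosphate count was 1 without phosphate 24 h replicate 3, 0 without phosphate 6 h replicate 2 and 0 without phosphate 6 h replicate 3, and it was 0 of the 84 members it could test in edgeR fitted on the compared groups alone.

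Against 72 h, 1 member was higher 24 h after nitrate, where 0.452% of genes were, and none was lower, where 0.681% were. That member was MpDIR6, with 5.33, 7.14 and 6.11 CPM at 24 h and 3.23, 2.08 and 1.97 CPM at 72 h, a change of 1.34 ± 0.29 (log2 fold change ± SE, adjusted p = 0.0169). For MpDIR6 the adjusted p was 0.0942 without nitrate 24 h replicate 2, 0.066 without nitrate 24 h replicate 3, 0.137 without nitrate 72 h replicate 2 and 0.163 without nitrate 72 h replicate 3. After phosphate no member was called by edgeR, where 0.704% of genes were higher and 0.815% lower. DESeq2 called 1 and 15 members had an unadjusted p under 0.05. The count was 1 without phosphate 24 h replicate 2, and the nitrate count was 0 without nitrate 24 h replicate 2, 0 without nitrate 24 h replicate 3, 0 without nitrate 72 h replicate 2 and 0 without nitrate 72 h replicate 3. The 24 h responses to phosphate and to nitrate differed for no member in edgeR, where 0.874% of genes were called with a larger phosphate response and 1.35% with a smaller one. 2 members had an unadjusted p under 0.05 in that comparison.

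In Tak-1, nitrate starvation alone left 3 members higher and 1 lower than in controls, against 16.5% and 15.1% of all genes. Mp3g11160, a gene with no symbol, had 27.6, 27.5 and 33.6 CPM in nitrate-starved plants and 11.2, 13.5 and 11.9 CPM in controls, a change of 1.25 ± 0.25 (log2 fold change ± SE, adjusted p = 0.000325). MpPOD24 had 5.44, 4.17 and 4.25 CPM in nitrate-starved plants and 1.77, 2.46 and 2.02 CPM in controls, a change of 1.14 ± 0.31 (log2 fold change ± SE, adjusted p = 0.00492). The starved and control libraries of both genes did not overlap. MpDIR6 was the other member called higher and MpPTB7 the member called lower. Phosphate starvation left 1 member higher, MpPOD24, and none lower, against 12.3% and 12.3% of all genes. Many members were tested near 0 reads here, because the table includes the 24 h sucrose libraries. The shares called after nitrate and phosphate starvation are therefore not read against those of all genes. MpPOD24 had 4.76, 3.53 and 3.98 CPM in phosphate-starved plants and 1.77, 2.46 and 2.02 CPM in controls, a change of 0.94 ± 0.31 (log2 fold change ± SE, adjusted p = 0.0276). For MpPOD24 the adjusted p was 0.103 without control replicate 1, 0.0733 without control replicate 3, 0.105 without phosphate-starved replicate 1 and 0.0591 without phosphate-starved replicate 3. The nitrate count was 2 without control replicate 2, and it was 16 of the 48 members it could test in edgeR fitted on the compared groups alone. The phosphate count was 0 without control replicate 1, 0 without control replicate 3, 0 without phosphate-starved replicate 1, 7 without phosphate-starved replicate 2 and 0 without phosphate-starved replicate 3, and it was 2 in DESeq2 and 3 of the 52 members it could test in edgeR fitted on the compared groups alone.

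The mutants are labelled as knock-outs of 3 transcription factor genes that the study took from its time course, and the comparison asks how the members stand without each of them. Reads of each targeted gene were still counted in its own mutant. MpCSD had 649, 673 and 659.8 CPM in Mpcsd-2 and 859, 846 and 798 CPM in Tak-1 under control conditions. MpERF20 had 6.26, 7.34 and 6.69 CPM in Mperf20-21 and 12.2, 10.6 and 13.5 CPM in Tak-1. MpHD9 had 31.7, 35.1 and 34.2 CPM in Mphd9-14 and 46.1, 49.9 and 47.4 CPM in Tak-1. In each case the mutant libraries were below those of Tak-1, and a count of reads does not test a small edit, whose position is not given in the sources used here.

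Under control conditions 70 of the 103 members passed the filter on low counts in that set of libraries, and 33 were too low to test. The summed level was 376, 355 and 395 CPM in Mpcsd-2, 389, 450.1 and 464 CPM in Mperf20-21, 365, 442 and 377 CPM in Mphd9-14 and 294, 327 and 297 CPM in Tak-1. Each mutant was compared with the same 3 Tak-1 libraries. In Mpcsd-2 19 members were higher and 16 lower, against 28.2% and 28.5% of all 12564 tested genes. In Mperf20-21 39 were higher and 1 lower, against 21% and 20.4%. In Mphd9-14 27 were higher and 5 lower, against 21.7% and 22%. Of the members that passed the filter without the libraries of the mutant compared, 19 of 69 were higher and 16 lower in Mpcsd-2, 35 of 64 higher and 1 lower in Mperf20-21, and 27 of 68 higher and 5 lower in Mphd9-14. For members called lower the higher group was Tak-1, which stayed in that filter, so the check does not cover them. The median difference of members was 0.09 in Mpcsd-2, 0.70 in Mperf20-21 and 0.39 in Mphd9-14 on the log2 scale.

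MpLOX11 had 8.03, 6.29 and 5.58 CPM in Mpcsd-2 and 0.446, 1.16 and 0.590 CPM in Tak-1, a change of 3.25 ± 0.44 (log2 fold change ± SE, adjusted p = 5.39e-06). Mp3g11160 had 93.3, 87.1 and 103 CPM in Mpcsd-2 and 24.7, 23.4 and 26.1 CPM in Tak-1, a change of 2.02 ± 0.07 (log2 fold change ± SE, adjusted p = 4.78e-14). Both were higher in the mutant in every library of this set. As control of its starvation series, however, Mpcsd-2 had a mean of 0.205 CPM of MpLOX11, below every full-medium Tak-1 library of either set. The rise of MpLOX11 was thus seen in the control-condition set only, and the difference between the sets was not tested. In the other direction, MpPPO55 had 0.685, 0.867 and 0.960 CPM in Mpcsd-2 and 4.66, 7.73 and 4.47 CPM in Tak-1, a change of -2.66 ± 0.27 (log2 fold change ± SE, adjusted p = 1.9e-07). The aquaporin gene MpTIP2 had 0.776, 0.905 and 0.960 CPM in Mpcsd-2 and 4.41, 5.55 and 4.89 CPM in Tak-1, a change of -2.40 ± 0.24 (log2 fold change ± SE, adjusted p = 1.17e-07). Its neighbour Mp6g11790 had 4.70, 5.39 and 6.54 CPM in Mpcsd-2 and 15.5, 16.4 and 14.0 CPM in Tak-1, a change of -1.38 ± 0.13 (log2 fold change ± SE, adjusted p = 5.99e-08). All 3 were lower in every mutant library than in every Tak-1 library.

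MpTPS6 had 0.896, 0.840 and 0.159 CPM in Mphd9-14, 1.78, 1.06 and 1.42 CPM in Mpcsd-2 and 8.23, 9.62 and 8.14 CPM in Tak-1. It changed by -3.71 ± 0.33 (log2 fold change ± SE, adjusted p = 5.6e-08) in Mphd9-14 and by -2.54 ± 0.30 (adjusted p = 8.95e-07) in Mpcsd-2, and both mutants lay below all Tak-1 libraries. MpGH16.17 had 4.57, 6.84 and 7.41 CPM in Mphd9-14 and 1.24, 1.90 and 2.07 CPM in Tak-1, a change of 1.90 ± 0.27 (log2 fold change ± SE, adjusted p = 1.57e-05). MpPPO48 had 3.77, 4.35 and 7.49 CPM in Mperf20-21 and 0.942, 1.62 and 2.53 CPM in Tak-1, a change of 1.60 ± 0.31 (log2 fold change ± SE, adjusted p = 0.000444). These wall and phenol enzymes were higher in each library of the mutant named in this set. As control of its starvation series, however, Mperf20-21 had a mean of 0.395 CPM of MpPPO48, below every full-medium Tak-1 library of either set. For MpPPO48 the rise in Mperf20-21 thus holds only in the control-condition set, and the difference between the sets was not tested. MpC4H3 differed less, by 0.79 ± 0.13 (adjusted p = 5.3e-05) in Mpcsd-2, 0.57 ± 0.13 (adjusted p = 0.0018) in Mperf20-21 and 0.63 ± 0.13 (adjusted p = 0.000736) in Mphd9-14 on the log2 scale. Of the 6 wall carbohydrate enzymes, 4 were higher in each mutant and 1 was lower in Mpcsd-2. Of the 5 polyphenol oxidases, 3 were higher in Mperf20-21 and 3 in Mphd9-14, and 1 was lower in Mpcsd-2. Of the 4 peroxidases that could be tested, 2 were higher in each mutant and 1 was lower in Mphd9-14. Leaving out 1 library at a time kept every one of the 3 counts within 1.5 times its value, and 32 of 35, 25 of 40 and 20 of 32 called members stayed called throughout in Mpcsd-2, Mperf20-21 and Mphd9-14.

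In edgeR's test over 13161 genes of the mutant starvation set, 78 of the 99 members that could be tested were higher in phosphate-starved than in control Mpcsd-2 and none was lower, against 6.39% and 1.4% of all genes. In Mperf20-21 56 were higher and none lower, against 3.8% and 0.767%. In Mphd9-14 50 were higher and none lower, against 1.98% and 0.312%. The median difference of tested members was 2.55, 1.94 and 1.81 on the log2 scale in Mpcsd-2, Mperf20-21 and Mphd9-14, whereas the medians of all genes were -0.0096, -0.0024 and -0.0023. The 4 members not tested were Mp2g08490, MpCupin65, Mp7g11120 and Mp8g08860. This comparison, the nitrate one and the comparison of responses with Tak-1 were added after the data had been seen.

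The summed level of the 103 genes was 417, 704 and 357 CPM in phosphate-starved Mpcsd-2 and 219, 214 and 208 CPM in its control. It was 505, 452 and 478 CPM in phosphate-starved Mperf20-21 and 223, 273 and 228 CPM in its control, and 529, 713 and 594 CPM in phosphate-starved Mphd9-14 and 348, 282 and 333 CPM in its control. Starved and control libraries of this set did not overlap in any of the 3 mutants. In the separate control-condition set, full-medium Mpcsd-2 summed to 355 to 395 CPM and Mperf20-21 to 389 to 464 CPM, overlapping the phosphate-starved ranges. Full-medium Mphd9-14 there, at 365 to 442 CPM, lay below its phosphate-starved libraries. For Mpcsd-2 and Mperf20-21 the separation holds only against the control of the starvation series. The difference between the sets was not tested. All libraries of the mutant starvation set stayed far below 1829 CPM. That was the level of the lowest library 24 h after sucrose in Tak-1, in an experiment whose libraries were counted in another table. 4 members had a library of this mutant set above their lowest 24 h sucrose library. In phosphate-starved Mpcsd-2, replicate 2 held the highest value of 99 members, and its all-gene difference from the other replicates was 0.127 on the log2 scale. The marker of rhizoids was at 14.5 to 18.4 CPM in phosphate-starved Mpcsd-2 and 16.0 to 17.3 CPM in its control, and the 5 oil body markers summed to 41.2 to 56.9 and 48.1 to 60.3 CPM in the same groups. Phosphate-starved and control Mphd9-14 had 11.9 to 14.1 and 13.6 to 16.5 CPM of the rhizoid marker, and phosphate-starved and control Mperf20-21 had 11.9 to 14.5 and 8.38 to 13.9 CPM. Their part in the result was not tested.

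**Figure D4:**
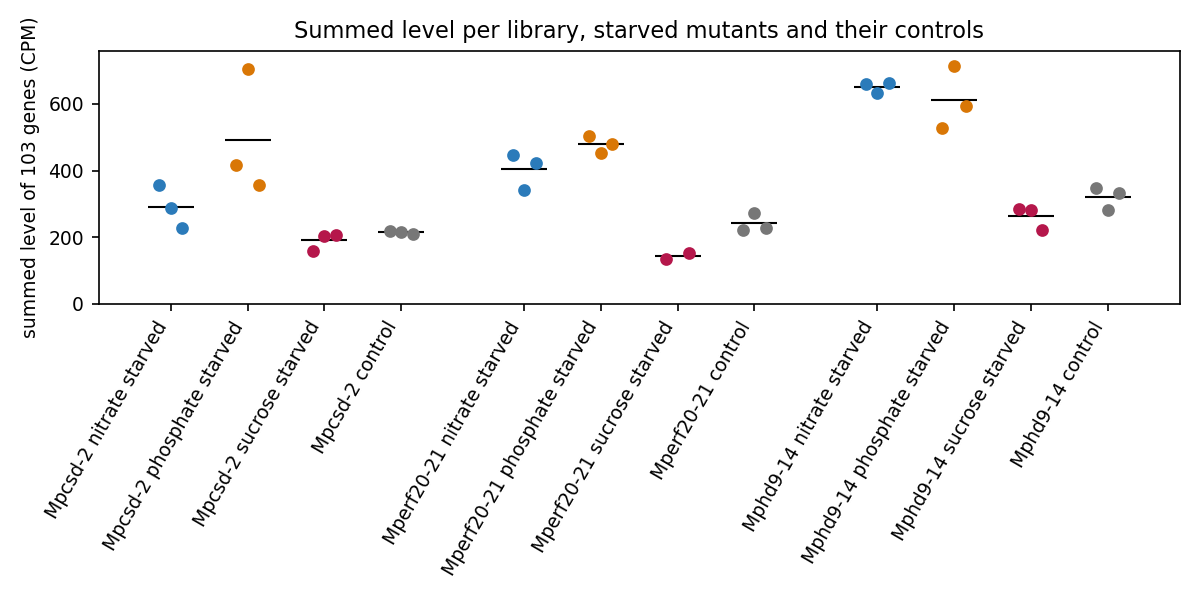
Summed level of the 103 genes in CPM in each library of the mutant starvation set; points are libraries, lines are group means, and each mutant's starved groups stand left of its control. Phosphate-starved libraries lie above their own controls in all 3 mutants, from 357 to 713 CPM against 208 to 348 CPM.

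Of the 15 peroxidases, 13, 11 and 10 were higher in phosphate-starved Mpcsd-2, Mperf20-21 and Mphd9-14 in that order, with median changes of 5.04, 4.74 and 3.56 on the log2 scale. MpPOD155 had 3.44, 6.997 and 0.625 CPM in phosphate-starved Mpcsd-2 and 0.192, 0 and 0.118 CPM in its control, a change of 5.15 ± 0.81 (log2 fold change ± SE, adjusted p = 6.87e-05). In phosphate-starved Mperf20-21 it had 2.46, 2.08 and 1.41 CPM, against 0, 0.199 and 0.0374 CPM in the control, a change of 4.57 ± 0.87 (adjusted p = 0.00144). Phosphate-starved Mphd9-14 had 2.47, 7.66 and 3.55 CPM and its control 0.249, 0.0457 and 0.265 CPM, a change of 4.59 ± 0.75 (adjusted p = 0.000383). Every starved library was above every control library of its mutant. Peroxidases that were not members were called higher in 15, 12 and 8 of 50 cases in the same order.

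All 5 polyphenol oxidases were higher in phosphate-starved Mpcsd-2, and 4 in each of the other mutants. MpPPO48 had 2.76, 6.08 and 1.25 CPM in phosphate-starved Mpcsd-2 and 0.479, 0.307 and 0.353 CPM in its control, a change of 3.17 ± 0.46 (log2 fold change ± SE, adjusted p = 9.92e-06). Phosphate-starved Mperf20-21 had 3.81, 1.82 and 2.26 CPM of it and the control 0.408, 0.479 and 0.299 CPM, a change of 2.705 ± 0.45 (adjusted p = 0.000239). Phosphate-starved Mphd9-14 had 2.37, 4.34 and 2.67 CPM and the control 0.697, 0.777 and 0.619 CPM, a change of 2.17 ± 0.43 (adjusted p = 0.00268). The starved libraries stood above their own controls in all 3 lines. In the separate control-condition set, full-medium Mpcsd-2, Mperf20-21 and Mphd9-14 had 1.96 to 2.19, 3.77 to 7.49 and 3.63 to 5.57 CPM of MpPPO48. Those ranges overlapped the phosphate-starved ones in each line, and the difference between the sets was not tested. MpPPO72 changed by 4.59 ± 0.79 (adjusted p = 0.000141), 3.40 ± 0.69 (adjusted p = 0.00219) and 3.74 ± 0.65 (adjusted p = 0.000668) on the log2 scale in Mpcsd-2, Mperf20-21 and Mphd9-14.

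All 4 expansins were higher in phosphate-starved Mpcsd-2 and 3 in each of the other mutants. MpExpansin38 had 1.49, 3.80 and 0.714 CPM in phosphate-starved Mpcsd-2 and 0.192, 0.132 and 0.0784 CPM in its control, a change of 3.92 ± 0.66 (log2 fold change ± SE, adjusted p = 9.99e-05). Of the 6 wall carbohydrate enzymes, 6, 3 and 4 were higher in Mpcsd-2, Mperf20-21 and Mphd9-14, and of the 184 tested wall enzymes that were not members 27, 12 and 1 were. MpGT34.10 had 4.84, 7.91 and 3.70 CPM in phosphate-starved Mpcsd-2 and 1.01, 1.10 and 1.25 CPM in its control, a change of 2.31 ± 0.24 (log2 fold change ± SE, adjusted p = 4.99e-08). It changed by 1.32 ± 0.21 (adjusted p = 0.000131) in Mperf20-21 and 1.42 ± 0.21 (adjusted p = 6.09e-05) in Mphd9-14. MpLEA-like54 had 6.24, 12.3 and 4.06 CPM in phosphate-starved Mpcsd-2 and 0.863, 1.71 and 1.88 CPM in its control, a change of 2.36 ± 0.40 (log2 fold change ± SE, adjusted p = 0.000124). In all 3 genes the starved and control libraries of Mpcsd-2 did not overlap. MpTPS6 had 8.23, 8.65 and 8.05 CPM in phosphate-starved Mperf20-21 and 1.04, 0.798 and 0.673 CPM in its control, a change of 3.28 ± 0.47 (log2 fold change ± SE, adjusted p = 2.63e-05). Full-medium Mperf20-21 of the separate control-condition set, however, had a mean of 10.35 CPM of MpTPS6, with 7.66 CPM in its lowest library. That mean lay above all 3 phosphate-starved libraries, so the rise holds only against the control of the starvation series. The difference between the sets was not tested.

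Among members with no symbol, 58 were tested, and 43, 31 and 26 of them were higher in phosphate-starved Mpcsd-2, Mperf20-21 and Mphd9-14. Mp2g05100, the most abundant member, had 90.1, 118 and 92.7 CPM in phosphate-starved Mpcsd-2 and 57.0, 63.0 and 57.5 CPM in its control, a change of 0.78 ± 0.10 (log2 fold change ± SE, adjusted p = 3.59e-06). Mp4g02840 had 5.99, 12.6 and 4.11 CPM in phosphate-starved Mpcsd-2 and 1.01, 0.351 and 0.823 CPM in its control, a change of 3.41 ± 0.47 (log2 fold change ± SE, adjusted p = 5.08e-06). It also changed by 2.81 ± 0.41 (adjusted p = 2.77e-05) in Mperf20-21 and 2.11 ± 0.37 (adjusted p = 0.000668) in Mphd9-14. Mp1g11430 had 7.22, 8.33 and 7.80 CPM in phosphate-starved Mperf20-21 and 1.22, 1.60 and 0.673 CPM in its control, a change of 2.72 ± 0.33 (log2 fold change ± SE, adjusted p = 1.42e-06). Mp4g21430 had 6.46, 7.41 and 6.34 CPM in phosphate-starved Mphd9-14 and 1.94, 1.92 and 1.28 CPM in its control, a change of 1.98 ± 0.31 (log2 fold change ± SE, adjusted p = 0.000135). Starved libraries were above control libraries for each gene and mutant given.

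Across the mutants, each set against its own control, 41 members were higher after phosphate starvation in all 3 and 82 in at least 1, where 1.53% and 7.2% of all 13161 genes were, and 17 tested members were called in none. The 41 included MpPOD28, MpPOD29, MpPOD93, MpPOD108, MpPOD119, MpPOD135, MpPOD154 and MpPOD155, the oxidases MpPPO48, MpPPO56, MpPPO14 and MpPPO72, and the expansins MpExpansin26 and MpExpansin38. Counting only members that passed the filter without the higher of the groups compared left the count of tested members that were called at 77, 56 and 49 for Mpcsd-2, Mperf20-21 and Mphd9-14. In every fit with 1 library left out, 58, 33 and 23 of the called members stayed called. The Mperf20-21 count was 34 without control replicate 1 and 36 without control replicate 3, and the Mphd9-14 count was 31 without control replicate 1, 29 without control replicate 2 and 25 without phosphate-starved replicate 2. For Mpcsd-2 it was 38 of the 74 members it could test in edgeR fitted on the compared groups alone.

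**Figure D5:**
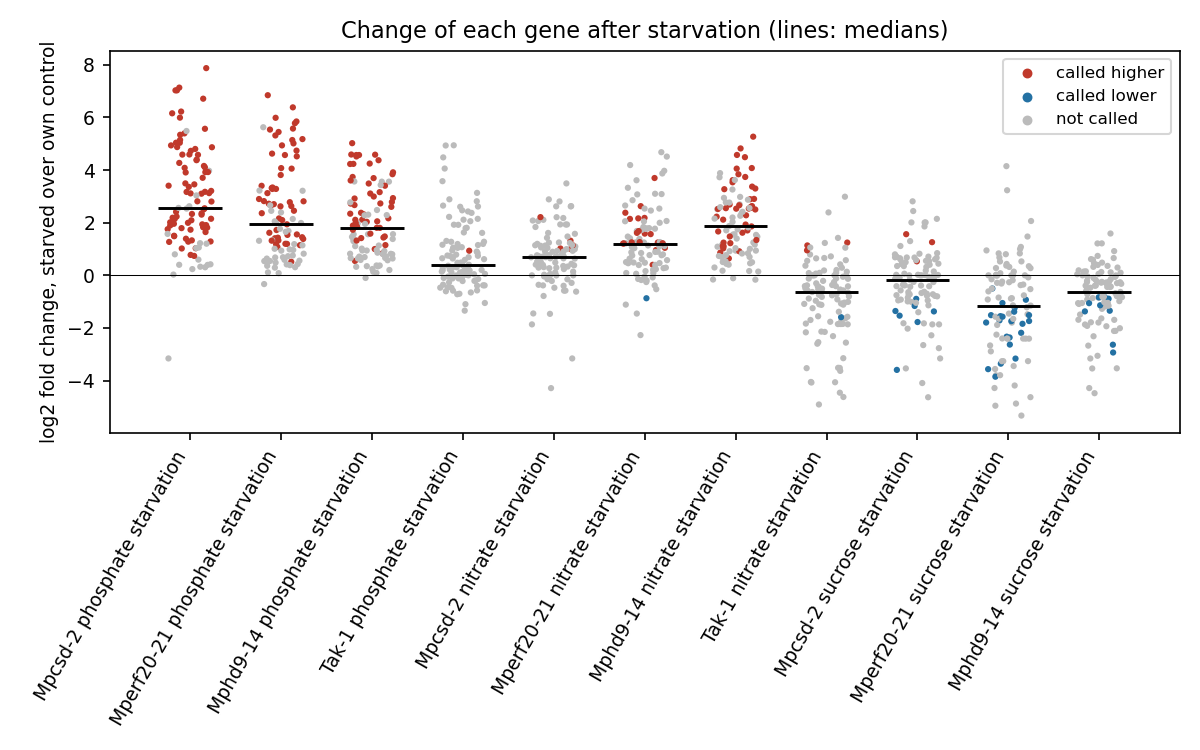
Change of each tested member after starvation, as the log2 fold change of starved over own control, in each mutant and, for phosphate and nitrate, in Tak-1; points are genes, red is called higher, blue called lower and grey not called, and lines are medians. The medians after phosphate starvation are 2.55, 1.94 and 1.81 in Mpcsd-2, Mperf20-21 and Mphd9-14 and 0.38 in Tak-1.

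After nitrate starvation 43 of 99 members were higher and none lower in Mphd9-14, against 1.06% and 0.144% of all genes. In Mperf20-21 19 were higher and 1 lower, against 2.45% and 0.805%, and in Mpcsd-2 5 were higher and none lower, against 1.68% and 0.167%. The median difference of members was 1.86 in Mphd9-14, 1.21 in Mperf20-21 and 0.70 in Mpcsd-2. The summed level was 660.2, 632 and 662 CPM in nitrate-starved Mphd9-14, 447, 342 and 423 CPM in nitrate-starved Mperf20-21 and 355, 288 and 229 CPM in nitrate-starved Mpcsd-2, each above its own control. The difference in response between the mutants was not tested. Rhizoid marker levels in nitrate-starved Mphd9-14 were 14.4 to 16.1 CPM, against 13.6 to 16.5 CPM in its control.

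MpPPO72 had 8.65, 6.11 and 5.38 CPM in nitrate-starved Mphd9-14 and 0.648, 0.320 and 0.442 CPM in its control, a change of 3.84 ± 0.65 (log2 fold change ± SE, adjusted p = 0.00171). Mp8g01410 had 7.14, 6.49 and 6.11 CPM in nitrate-starved Mphd9-14 and 1.20, 1.28 and 0.795 CPM in its control, a change of 2.61 ± 0.46 (log2 fold change ± SE, adjusted p = 0.00237). MpLOX11 had 2.46, 3.55 and 2.77 CPM in nitrate-starved Mphd9-14 and 0.399, 0.457 and 0.619 CPM in its control, a change of 2.56 ± 0.34 (log2 fold change ± SE, adjusted p = 7.04e-05). The libraries of these genes did not overlap. Of the 15 peroxidases 9 were higher in nitrate-starved Mphd9-14, 1 in Mperf20-21 and none in Mpcsd-2, and of the 5 polyphenol oxidases 4 were higher in Mphd9-14, 1 in Mperf20-21 and none in Mpcsd-2. In Mperf20-21, Mp1g11430 had 6.29, 4.22 and 5.11 CPM in nitrate-starved plants and 1.22, 1.60 and 0.673 CPM in the control, a change of 2.15 ± 0.33 (log2 fold change ± SE, adjusted p = 0.000191). MpGT34.10 was called in all 3 mutants, with changes of 1.48 ± 0.21 (adjusted p = 0.000181) in Mphd9-14, 1.25 ± 0.21 (adjusted p = 0.000468) in Mperf20-21 and 1.14 ± 0.26 (adjusted p = 0.0118) in Mpcsd-2. In all, 4 members were higher after nitrate starvation in all 3 mutants and 49 in at least 1, where 0.296% and 3.75% of all genes were. For MpGT34.10 in Mpcsd-2 the adjusted p was 0.204 in a fit on the compared groups alone, 0.0664 without control replicate 1, 0.0513 without control replicate 2 and 0.197 without nitrate-starved replicate 1. The Mphd9-14 count was 22 without control replicate 1, 14 without control replicate 2, 24 without control replicate 3, 25 without nitrate-starved replicate 1 and 23 without nitrate-starved replicate 3, and 12 members stayed called in all of those fits. The Mperf20-21 count was 8 without control replicate 1, 9 without control replicate 3, 8 without nitrate-starved replicate 1 and 11 without nitrate-starved replicate 3, and the Mpcsd-2 count was 1 without control replicate 1, 2 without control replicate 3, 1 without nitrate-starved replicate 1 and 10 without nitrate-starved replicate 3. In other fits the Mphd9-14 count was 73 of the 92 members it could test in edgeR fitted on the compared groups alone, and the Mpcsd-2 count was 11 in DESeq2 and 0 of the 48 members it could test in edgeR fitted on the compared groups alone.

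After sucrose starvation, the treatment that precedes the peak, 22 of 99 members were lower in Mperf20-21 and none higher, against 6.96% and 8.38% of all genes. In Mphd9-14 10 were lower and none higher, against 9.99% and 12.4%, and in Mpcsd-2 7 were lower and 3 higher, against 10.9% and 15.3%. The share called lower was near that of all genes in Mphd9-14 and below it in Mpcsd-2. The median difference of members was -1.15 in Mperf20-21, -0.63 in Mphd9-14 and -0.17 in Mpcsd-2, or -0.84, -0.49 and -0.17 with genes that had no read in a group set to the bound that 3 counts give. Mp7g08760 had 1.26 and 1.37 CPM in sucrose-starved Mperf20-21 and 7.90, 7.86 and 5.09 CPM in its control, a change of -2.33 ± 0.29 (log2 fold change ± SE, adjusted p = 2.45e-06). It changed by -1.06 ± 0.21 (adjusted p = 0.000552) in Mphd9-14 and -1.53 ± 0.20 (adjusted p = 2.59e-06) in Mpcsd-2, and starved libraries lay below control libraries in each line. Mp6g11790 had 0.951, 1.65 and 2.11 CPM in sucrose-starved Mpcsd-2 and 4.89, 8.34 and 4.98 CPM in its control, a change of -1.78 ± 0.33 (log2 fold change ± SE, adjusted p = 0.000264). MpDIR6 went the other way in Mpcsd-2, with 14.2, 25.5 and 15.3 CPM in sucrose-starved plants and 8.53, 4.08 and 8.54 CPM in the control, a change of 1.56 ± 0.32 (log2 fold change ± SE, adjusted p = 0.000671). Full-medium Mpcsd-2 of the separate control-condition set had 13.5 to 14.7 CPM of MpDIR6, which overlapped the sucrose-starved libraries. That rise thus holds only against the control of the starvation series, and the difference between the sets was not tested. No peroxidase was called in any of the 3 mutants. Apart from MpPOD24, however, their control means were at most 0.104 CPM in Mperf20-21 and 0.103 CPM in Mpcsd-2. In Mperf20-21 and Mpcsd-2 a lower call was hardly possible at such levels. That limit is not shown for Mphd9-14, and nothing is read from the absence of calls in any line. For MpDIR6 the adjusted p was 0.0753 in a fit on the compared groups alone.

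The members lower in all 3 mutants were Mp1g11430, Mp5g13580, Mp5g19230, Mp6g11790, Mp7g08760 and MpPTB7, 6 of 99, and 24 were lower in at least 1, where 3.35% and 17.3% of all genes were. Beside these values, the 5 oil body markers summed to 68.4 to 72.0 CPM in sucrose-starved Mperf20-21 and 86.1 to 98.5 CPM in its control, 48.8 to 63.7 and 68.8 to 86.7 CPM in sucrose-starved and control Mphd9-14, and 23.2 to 49.5 and 48.1 to 60.3 CPM in sucrose-starved and control Mpcsd-2. Their part in the result was not tested. The Mperf20-21 count was 7 without sucrose-starved replicate 1, and the Mphd9-14 count was 4 without control replicate 1, 5 without control replicate 3 and 1 without sucrose-starved replicate 3. In other fits the Mphd9-14 count was 16 of the 55 members it could test in edgeR fitted on the compared groups alone, and the Mpcsd-2 count was 17 in DESeq2 and 2 of the 40 members it could test in edgeR fitted on the compared groups alone.

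Whether the starvation response of a mutant differed from that of Tak-1 was tested directly, as the starved-to-control change in the mutant minus that in Tak-1, in 1 edgeR fit over 13325 genes of both sets. The mutant and wild-type plants belong to separate experiments, and genotype and experiment cannot be told apart in this comparison. The Tak-1 libraries are shared by all 3 mutants. For phosphate, 24 members had a larger response in Mpcsd-2 and none a smaller one, against 5.96% and 4.44% of all genes. In Mperf20-21 8 were larger and none smaller, against 3.4% and 3.83%, and in Mphd9-14 7 were larger and none smaller, against 4.29% and 3.83%. The larger responses were 8.08% of the tested members in Mperf20-21 and 7.07% in Mphd9-14. Both counts moved widely with single libraries, as given below, and nothing is read from them. MpPPO48 had a difference in response of 2.80 ± 0.59 (adjusted p = 0.00314) in Mpcsd-2 and 2.33 ± 0.58 (adjusted p = 0.015) in Mperf20-21, and in Tak-1 it had 1.98, 1.92 and 1.63 CPM in phosphate-starved plants and 1.01, 1.42 and 1.71 CPM in controls. The starved and control libraries of Tak-1 overlapped. MpGH16.38 had a difference of 2.08 ± 0.35 (adjusted p = 0.000353) in Mpcsd-2 and 1.53 ± 0.34 (adjusted p = 0.00535) in Mphd9-14. Leaving out Tak-1 phosphate-starved replicate 2, the library in which the members were high, moved these counts most. Without it the counts were 57 in Mpcsd-2, 43 in Mperf20-21 and 38 in Mphd9-14. Over all libraries, the Mpcsd-2 count was 13 without Mpcsd-2 control replicate 3, 12 without Mpcsd-2 phosphate-starved replicate 2, 13 without Tak-1 control replicate 2, 14 without Tak-1 phosphate-starved replicate 1, 57 without Tak-1 phosphate-starved replicate 2 and 15 without Tak-1 phosphate-starved replicate 3. The Mperf20-21 count was 3 without Mperf20-21 control replicate 3, 4 without Mperf20-21 phosphate-starved replicate 3, 3 without Tak-1 control replicate 2, 5 without Tak-1 control replicate 3, 2 without Tak-1 phosphate-starved replicate 1, 43 without Tak-1 phosphate-starved replicate 2 and 1 without Tak-1 phosphate-starved replicate 3. The Mphd9-14 count was 3 without Mphd9-14 control replicate 1, 3 without Mphd9-14 control replicate 2, 3 without Mphd9-14 control replicate 3, 2 without Mphd9-14 phosphate-starved replicate 2, 3 without Tak-1 control replicate 1, 2 without Tak-1 control replicate 2, 1 without Tak-1 phosphate-starved replicate 1, 38 without Tak-1 phosphate-starved replicate 2 and 1 without Tak-1 phosphate-starved replicate 3. In other fits the count was 3 of the 86 members it could test in edgeR fitted on the compared groups alone for Mpcsd-2, and 14 in DESeq2 and 3 of the 85 members it could test in edgeR fitted on the compared groups alone for Mperf20-21.

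For nitrate, 36 members had a larger response in Mphd9-14 than in Tak-1 and 1 a smaller one, against 8.97% and 9.94% of all genes. In Mperf20-21 22 were larger and 1 smaller, against 8.23% and 10%, and in Mpcsd-2 12 were larger and 1 smaller, against 8.03% and 6.63%, a share little above that of all genes. MpLOX11 had a difference in response of 4.13 ± 0.61 (adjusted p = 2.23e-05) in Mphd9-14 and 3.25 ± 0.60 (adjusted p = 0.000271) in Mperf20-21. MpGT34.10 had one of 2.54 ± 0.62 (adjusted p = 0.004) in Mphd9-14 and 2.31 ± 0.62 (adjusted p = 0.00902) in Mperf20-21, and Mp1g11430 had one of 4.16 ± 0.79 (adjusted p = 0.000433) and 4.45 ± 0.81 (adjusted p = 0.000259) in the same lines. MpLOX11 in Tak-1 had 0.436, 0.200 and 0.0726 CPM in nitrate-starved plants and 0.790, 0.877 and 0.571 CPM in controls. Members with the smaller response were Mp3g11160 in Mphd9-14 and Mpcsd-2 and MpPOD24 in Mperf20-21. The Mphd9-14 count stayed within 1.5 times its value without any 1 library, and 24 of its members stayed called in all of those fits. The Mperf20-21 count was 15 without Mperf20-21 control replicate 1, 14 without Mperf20-21 control replicate 3, 14 without Mperf20-21 nitrate-starved replicate 3 and 15 without Tak-1 control replicate 2, and the Mpcsd-2 count was 7 without Mpcsd-2 control replicate 3, 8 without Mpcsd-2 nitrate-starved replicate 1, 8 without Tak-1 control replicate 2, 8 without Tak-1 nitrate-starved replicate 2 and 7 without Tak-1 nitrate-starved replicate 3. In other fits the count was 56 of the 96 members it could test in edgeR fitted on the compared groups alone for Mphd9-14 and 21 in DESeq2 for Mpcsd-2.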

How the data were processed

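RNA of whole gemmalings was extracted with a QIAGEN Plant RNeasy kit and made into directional poly-A libraries, per the labels' protocols. The deposited values are raw read counts per gene; the authors aligned reads with STAR 2.7 and used DESeq2, per the submitters' processing notes, and the genome build, annotation and counting tool are not given in the sources used here. CPM values were computed here from the deposited counts and the column totals. A table of the alga Klebsormidium nitens was not analysed here.

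Members and gene lists were chosen with earlier results of these data known. Comparisons used edgeR 4.0.16 (TMM scaling, filterByExpr, quasi-likelihood F-test, 2-sided, Benjamini-Hochberg over all genes tested, called at adjusted p under 0.05), with 1 fit per table; responses of mutants and Tak-1 were compared in 1 fit of both tables. The code was tested on simulated data. DESeq2 1.42.0, other scaling, no filter, a replicate block, fits on the compared groups alone and leaving out each library were tried as alternatives; 15 comparisons were planned and 12 were added after the data had been seen. Total counts of 16878159 to 38992957 set the precision.

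Gene symbols came from the RefSeq gene table of assembly MpTak2_v7.1, which matched 17384 of the 19355 identifiers and served for names and gene order only. Named genes were the 25 symbol-bearing members with the highest 24 h level, the 10 members with the highest level, the 5 with the largest smallest ratio, up to 3 called members each way per comparison with the largest fold change among those whose libraries did not overlap and that reached 5 CPM, the 3 genes on each side of each limit (1 of them is not reported here), and the 3 mutated genes. Other members were named after their values were seen, in part because their calls held under all alternatives. Sums of the 5 families and the 37 lists use the symbols alone. Where a gene had no read in a group, fold changes depend on the floor of 3 counts over the group.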

Additional observations from a re-analysis of the deposited data

Results flagged for a closer look

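The difference between the starvation response of a mutant and that of Tak-1 was tested directly in edgeR. After phosphate starvation the difference was called for 24 of 99 tested members in Mpcsd-2, 8 in Mperf20-21 and 7 in Mphd9-14, each time with the larger response in the mutant. Of all genes, 5.96%, 3.4% and 4.29% had a larger and 4.44%, 3.83% and 3.83% a smaller response in Mpcsd-2, Mperf20-21 and Mphd9-14. After nitrate starvation it was called for 37 members in Mphd9-14, 36 of them larger in the mutant, for 23 in Mperf20-21, 22 of them larger, and for 13 in Mpcsd-2, 12 of them larger. Of all genes, 8.97%, 8.23% and 8.03% had a larger and 9.94%, 10% and 6.63% a smaller response in Mphd9-14, Mperf20-21 and Mpcsd-2. The larger responses were 8.08% of tested members in Mperf20-21 and 7.07% in Mphd9-14 after phosphate, and 12.1% in Mpcsd-2 after nitrate. Those counts moved with single libraries, and nothing is read from them. The mutant and the Tak-1 libraries came from separate experiments, and genotype and experiment cannot be told apart. The Tak-1 libraries are shared by the 3 mutants, so these counts are not independent of each other. Without Tak-1 phosphate-starved replicate 2 the phosphate counts were 57, 43 and 38 in Mpcsd-2, Mperf20-21 and Mphd9-14. The Mpcsd-2 phosphate count also moved down, to 12 at the lowest with 1 library left out, and 10 of the 24 members stayed called throughout. It was lower still in a fit on the compared groups alone.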

How the results depend on the processing

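Under other cut-offs the membership rule gave 130 genes at a ratio of 2, 84 at a ratio of 3, 146 at a minimum of 1 CPM, 70 at a minimum of 10 CPM, 110 with a pseudocount of 0.5 CPM and 104 with library sizes scaled by the trimmed mean of M-values (TMM). With 1 library left out it gave 89 to 120. The peak rule in phosphate caught 1 member at a ratio of 2, 0 to 1 with 1 library left out, and in nitrate 0 to 0.

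The counts of called members kept within 1.5 times their value in 276 of 386 alternatives, the membership counts included. Size factors from DESeq2 used in edgeR and no filter on low counts moved none of them by more. The DESeq2 test gave 28 for nitrate 24 h against starved, 24 for nitrate 24 h against 6 h, 1 for phosphate 24 h against 72 h, 2 for phosphate-starved Tak-1 against control, 17 for Mpcsd-2 sucrose starvation, 11 for Mpcsd-2 nitrate starvation, 21 for Mpcsd-2 minus Tak-1 nitrate response and 14 for Mperf20-21 minus Tak-1 phosphate response. edgeR fitted on the compared groups alone, with fewer members tested and a spread estimated from fewer libraries, gave 33 for nitrate 24 h against starved, 3 for phosphate 24 h against starved, 35 for nitrate 24 h against 6 h, 0 for phosphate 24 h against 6 h, 16 for nitrate-starved Tak-1 against control, 3 for phosphate-starved Tak-1 against control, 2 for Mpcsd-2 sucrose starvation, 16 for Mphd9-14 sucrose starvation, 0 for Mpcsd-2 nitrate starvation, 73 for Mphd9-14 nitrate starvation, 38 for Mpcsd-2 phosphate starvation, 3 for Mpcsd-2 minus Tak-1 phosphate response, 3 for Mperf20-21 minus Tak-1 phosphate response and 56 for Mphd9-14 minus Tak-1 nitrate response. Apart from the numbers of libraries and genes in that fit, the cause was not tested.

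The replicate numbers in the labels did not pair the libraries, since in no comparison was the correlation of every same-numbered pair above 0.1. With the replicate number as a block, the count was 17 for Mperf20-21 minus Tak-1 phosphate response and 11 for Mphd9-14 minus Tak-1 phosphate response, against 8 and 7 without it, and the other counts stayed within 1.5 times.

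With each library left out in turn, called members numbered 4 to 16 for nitrate 24 h against starved, 2 to 36 for phosphate 24 h against starved, 1 to 10 for nitrate 24 h against 6 h, 0 to 3 for phosphate 24 h against 6 h, 0 to 1 for nitrate 24 h against 72 h, 0 to 1 for phosphate 24 h against 72 h, 2 to 4 for nitrate-starved Tak-1 against control, 0 to 7 for phosphate-starved Tak-1 against control and 0 to 0 for the phosphate minus nitrate response. They numbered 33 to 38 for Mpcsd-2 against Tak-1, 29 to 40 for Mperf20-21 against Tak-1, 26 to 29 for Mphd9-14 against Tak-1, 7 to 12 for Mpcsd-2 sucrose starvation, 7 to 20 for Mperf20-21 sucrose starvation, 1 to 10 for Mphd9-14 sucrose starvation, 1 to 10 for Mpcsd-2 nitrate starvation, 8 to 25 for Mperf20-21 nitrate starvation and 14 to 33 for Mphd9-14 nitrate starvation. In the other comparisons they numbered 58 to 83 for Mpcsd-2 phosphate starvation, 34 to 49 for Mperf20-21 phosphate starvation, 25 to 50 for Mphd9-14 phosphate starvation, 12 to 57 for Mpcsd-2 minus Tak-1 phosphate response, 7 to 15 for Mpcsd-2 minus Tak-1 nitrate response, 1 to 43 for Mperf20-21 minus Tak-1 phosphate response, 14 to 22 for Mperf20-21 minus Tak-1 nitrate response, 1 to 38 for Mphd9-14 minus Tak-1 phosphate response and 29 to 38 for Mphd9-14 minus Tak-1 nitrate response. Without 1 of its libraries, sucrose-starved Mperf20-21 had a lone library that was assumed to vary like the other groups.

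Of the single-gene results, 939 of 992 gene and alternative pairs kept their direction and call, 53 lost the call and none changed sign. Levels under 1 CPM rest on few reads. The promoter windows planned for a motif search were not analysed here.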

Other observations

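Plants of 1 genotype in full medium differed in their summed level of the 103 genes between the sets of libraries. Mpcsd-2 had 376, 355 and 395 CPM in the control-condition set and 219, 214 and 208 CPM as control of its starvation series. Mperf20-21 had 389, 450.1 and 464 CPM in the control-condition set and 223, 273 and 228 CPM as control of its starvation series. Mphd9-14 had 365, 442 and 377 CPM in the control-condition set and 348, 282 and 333 CPM as control of its starvation series. Tak-1 had 294, 327 and 297 CPM in the control-condition set and 189, 232 and 189 CPM in the time course. In all 4 genotypes the control-condition libraries were the higher ones, without overlap. These sets were counted in separate tables, and the differences were not tested.

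The summed level in phosphate-starved plants was 417, 704 and 357 CPM in Mpcsd-2, 505, 452 and 478 CPM in Mperf20-21, 529, 713 and 594 CPM in Mphd9-14 and 143, 362 and 136 CPM in Tak-1. The Tak-1 library at 362 CPM lay above the lowest library of Mpcsd-2, and the other Tak-1 libraries lay below all mutant libraries.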
